A study of Mus musculus with 3 samples.

Results

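Laminins are the main adhesive polymer of basement membranes, the thin matrix sheets on which epithelium, endothelium, muscle and fat rest. Each laminin is a trimer of an alpha, a beta and a gamma chain, and the chains are encoded by separate genes, so the mixture of chains that a cell transcribes sets which trimers it can assemble. Nidogens are rod-shaped glycoproteins that bind the gamma1 chain and link the laminin network to type IV collagen. In the mammary gland the basement membrane surrounds the ducts and the contractile myoepithelial cells lie directly on it.

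The genes described are Lama1, Lama3, Lama4, Lama5, Lamb2, Lamb3, Lamc1, Nid1 and Nid2, which are 9 of the 22378 gene models listed, 7 laminin chains and both nidogens. They were chosen by name. Poly(A) RNA sequencing had been run on 3 pooled libraries of mammary cells or tissue from mice of the FVB background, 1 library for each group. LCC were mammary cells of GFP-expressing FVB mice, or FVB mammary cells stained with the dye DDAO, that had been injected into a vein of FVB recipients and sorted by GFP or DDAO from the dissociated lungs 1 day later. Each experiment used glands of 8 donor females and 4 recipients, with 2 injections of 2500000 cells, and this library pooled 15 experiments, 42 lungs and 455880 cells. E-Int29-Hi were cells of the gland in a flow-sorting gate of intermediate EpCAM and high CD29 (integrin beta1) staining, from 3 combined samples, and the submitters describe this gate as a subset in which the colonizing cells are enriched. MG was mammary gland that had not been dissociated, also from 3 combined samples. The ages of the mice are not given in the sources used here. Dissociation, sorting and recovery from a lung differ between the groups together with their cell content, so these cannot be told apart. The study asked which genes set the recovered cells, the sorted subset and the gland apart.

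Levels are FPKM, which counts fragments relative to the length of the gene model and to all mapped fragments. Genes can therefore be set side by side within a library. Between libraries the comparison also depends on how they are scaled, and other scalings are given below. All 9 genes had the status OK in every library and passed the low-value filter (1 FPKM or more in at least 1 library of a pair) in every comparison. Read totals were not given, so the depth is unknown and no counting interval can be given. With 1 library per group there is no replicate spread, no test was run, and the order of any levels that lie close together cannot be settled. Changes are log2((FPKM + 1)/(FPKM + 1)), a scale that understates the change of low genes. A gene counts as higher or lower here when it is at least 4-fold apart on that scale, which is a log2 change of 2, and a 2-fold count is given beside it. The median of all genes was 0.26 for LCC over E-Int29-Hi, 0.01 for LCC over MG and -0.23 for E-Int29-Hi over MG, and the changes below are to be read against these medians.

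The promoters of 3 of these genes are shown first because their levels go different ways in the results: Lamb3 stood lowest in MG, whereas Lama5 and Nid1 stood highest there. Each runs 5′ to 3′ on the strand of the gene from 250 bases before to 50 bases after an annotated start in RefSeq, on build GRCm38.p6. That build comes from another strain and is not the build of the deposited values. Capitals mark the GC box GGGCGG on either strand, the letters that Sp1-type factors are known to bind. Lamb3 has 2 such windows in RefSeq, of which the one at chr1:193301744-193302043 (plus strand) is shown. Lama5 lies at chr2:180225810-180226109 (minus strand) and Nid1 at chr13:13437352-13437651 (plus strand).
Lamb3: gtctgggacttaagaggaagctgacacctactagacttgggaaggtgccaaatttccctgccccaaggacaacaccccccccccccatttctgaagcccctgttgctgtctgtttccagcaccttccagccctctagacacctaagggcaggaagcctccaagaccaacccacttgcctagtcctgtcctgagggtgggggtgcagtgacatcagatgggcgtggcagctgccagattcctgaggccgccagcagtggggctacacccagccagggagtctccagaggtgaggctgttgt
Lama5: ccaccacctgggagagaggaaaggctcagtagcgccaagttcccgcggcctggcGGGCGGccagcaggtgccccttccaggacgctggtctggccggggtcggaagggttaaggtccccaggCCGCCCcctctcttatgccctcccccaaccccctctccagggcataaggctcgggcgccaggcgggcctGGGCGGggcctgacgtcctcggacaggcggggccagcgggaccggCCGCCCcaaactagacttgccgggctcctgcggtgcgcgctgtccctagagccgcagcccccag
Nid1: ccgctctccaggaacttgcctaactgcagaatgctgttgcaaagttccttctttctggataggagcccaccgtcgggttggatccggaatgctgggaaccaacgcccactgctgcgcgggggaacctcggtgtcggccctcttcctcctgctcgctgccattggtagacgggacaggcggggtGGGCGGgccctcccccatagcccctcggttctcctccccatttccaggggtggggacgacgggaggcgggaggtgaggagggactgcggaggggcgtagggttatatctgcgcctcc
The Lama5 window held 4 GC boxes and 24 CpG dinucleotides, and that of Nid1 held 1 GC box and 20 CpG dinucleotides. The Lamb3 window shown held no GC box and 2 CpG dinucleotides, and its second window no GC box and 5. The Lamb2 window, not shown, had no GC box and 4 CpG dinucleotides. Lamb2 also stood highest in MG as deposited, at 47.6 FPKM, though close to its 42.2 FPKM in E-Int29-Hi. A link between these letters and the levels was not tested. Of 32851 promoter windows of the same length, 35.7% held at least 1 GC box, and the median window held 7 CpG dinucleotides. Also searched on both strands, with matches of different motifs free to share letters, were TGANTCA (the AP-1 site, in 7.81% of all windows), TATAAA (the TATA box, 13.6%), CACGTG (an E-box, 7.15%) and ACAATG (a SOX core, 12.6%). None of these 4 was among the letters of the windows of Lama5, Lamb2, Lamb3 or Nid1. The table matched these 4 of the 9 genes, and Lama1, Lama3, Lama4, Lamc1 and Nid2 are named only.

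The alpha chains carry the sites for most cell receptors, and they included the gene with the widest range of the 9, Lama1. This gene, the alpha1 chain known from early development and from a few adult epithelia, stood at 0.765 FPKM in LCC, 32.3 FPKM in E-Int29-Hi and 1.67 FPKM in MG. It was high in the sorted subset alone and low in both other libraries. Its log2 change was -4.24 for LCC over E-Int29-Hi, -0.60 for LCC over MG and 3.64 for E-Int29-Hi over MG. Lama3, the alpha3 chain of the laminin that anchors epithelial cells through hemidesmosomes, stood at 59.7 FPKM in LCC, 153 FPKM in E-Int29-Hi and 18.3 FPKM in MG. LCC therefore lay between the other libraries for this gene, with log2 changes of -1.35 over E-Int29-Hi and 1.65 over MG, and the change of E-Int29-Hi over MG was 3.00.

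Lama4, the alpha4 chain of vessel walls and other mesenchymal tissue, had a different order. It stood at 30.3 FPKM in LCC, 6.93 FPKM in E-Int29-Hi and 23.1 FPKM in MG, so the sorted subset was the low library. The log2 change of LCC over E-Int29-Hi was 1.98, just under the 4-fold line on this scale, and that of E-Int29-Hi over MG was -1.61. Lama5, the broadly used alpha chain of mature epithelial and vascular basement membranes, stood at 20.7 FPKM in LCC, 65.2 FPKM in E-Int29-Hi and 95.7 FPKM in MG. LCC was the low library for Lama5, with log2 changes of -1.61 over E-Int29-Hi and -2.16 over MG. The change over MG came to -1.97 with a pseudocount of 5 FPKM, under the 4-fold line.

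Of the beta chains, Lamb2 stood at 26.2 FPKM in LCC, 42.2 FPKM in E-Int29-Hi and 47.6 FPKM in MG. This chain, known from vessels, muscle and the kidney filter, was less than 2-fold apart between any 2 libraries as deposited. Its log2 changes were -0.67 for LCC over E-Int29-Hi, -0.84 for LCC over MG and -0.17 for E-Int29-Hi over MG, and the last of these turned to 0.16 with median ratio scaling. With libraries rescaled to the same sum, LCC over MG came to -1.23. Lamb3, the beta3 chain that pairs with alpha3, stood at 70.0 FPKM in LCC, 106 FPKM in E-Int29-Hi and 15.1 FPKM in MG. Both cell libraries stood above the gland for Lamb3, with a log2 change of 2.14 for LCC over MG and 2.74 for E-Int29-Hi over MG, whereas LCC over E-Int29-Hi was -0.60. The change of LCC over MG came to 1.90 with a pseudocount of 5 FPKM and to 1.81 with libraries rescaled to the same sum, both under the 4-fold line. The Lamb3 gene overlaps Hsd11b1 and G0s2 on the opposite strand in the GRCm38 annotation. Hsd11b1 stood at 8.78 FPKM in LCC, 1.22 FPKM in E-Int29-Hi and 5.83 FPKM in MG. G0s2 stood at 12.6 FPKM in LCC, 6.17 FPKM in E-Int29-Hi and 1.86 FPKM in MG. Strand-aware counting is not stated, so reads of overlapping genes cannot be told apart.

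Lamc1, the gamma1 chain of most laminins and the one that nidogen binds, was the most even member. It stood at 97.4 FPKM in LCC, 94.5 FPKM in E-Int29-Hi and 97.6 FPKM in MG. Its log2 changes of 0.04, 0.00 and -0.05 were all near 0 as deposited. They became -0.24 for LCC over E-Int29-Hi, 0.05 for LCC over MG and 0.29 for E-Int29-Hi over MG with median ratio scaling. The sign of each is therefore set by the scaling, and the level of Lamc1 was within 1.5-fold across libraries under both of these scalings.

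The nidogens were lower in both cell libraries than in the gland. Nid1 stood at 62.4 FPKM in LCC, 23.9 FPKM in E-Int29-Hi and 136 FPKM in MG. LCC lay between the other libraries, with log2 changes of 1.35 over E-Int29-Hi and -1.12 over MG, and E-Int29-Hi over MG was -2.46. Nid2, the second nidogen, stood at 1.88 FPKM in LCC, 2.43 FPKM in E-Int29-Hi and 14.0 FPKM in MG. Here the cell libraries lay close together, at log2 changes of -2.38 (LCC) and -2.13 (E-Int29-Hi) over MG. With a pseudocount of 5 FPKM they came to -1.46 (LCC) and -1.35 (E-Int29-Hi), and the change of E-Int29-Hi came to -1.86 with median ratio scaling, all 3 under the 4-fold line. Nid1 exceeded Nid2 by 33.1 times in LCC, 9.85 times in E-Int29-Hi and 9.77 times in MG, as a ratio of FPKM within each library. The Nid2 gene overlaps the protein-coding gene Rtraf on the opposite strand in the GRCm38 annotation. No value stood under the name Rtraf, and reads of these overlapping genes cannot be told apart either.

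**Figure D1:**
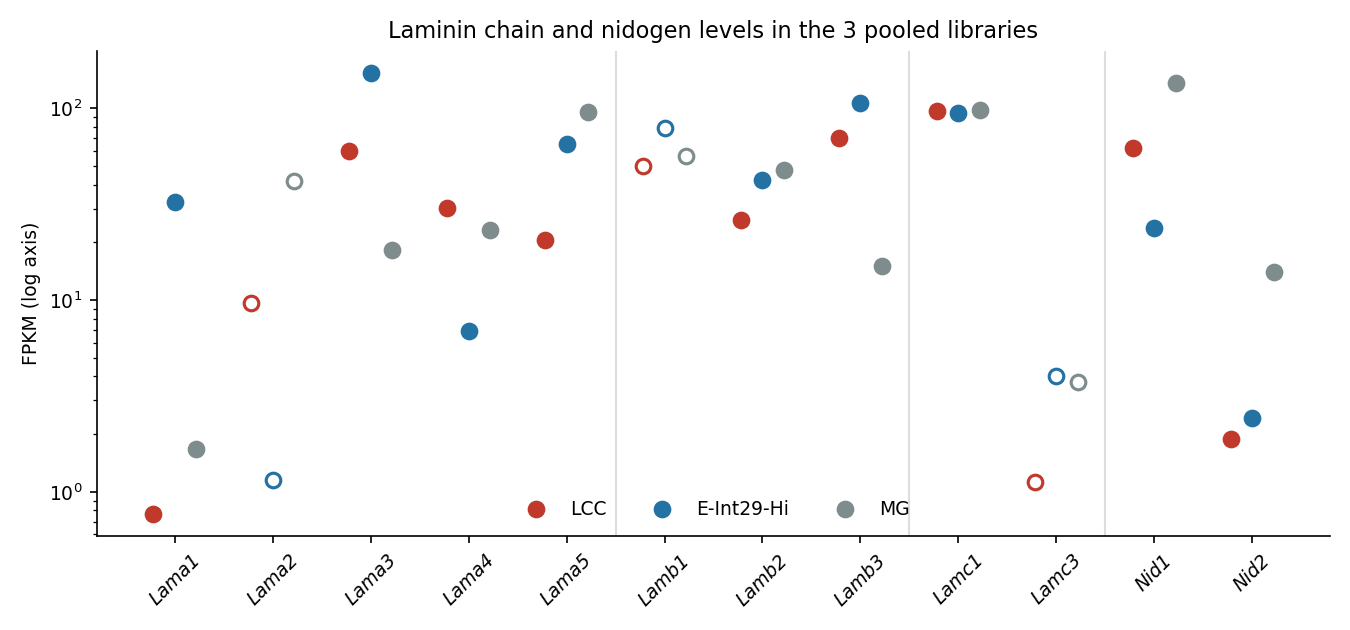
FPKM on a log axis for each laminin chain and nidogen, with 1 point for each pooled library (LCC, E-Int29-Hi and MG, from left to right within a gene) and no error bars because there are no replicates. Filled points are the 9 genes described and open points the other 3 laminin chains shown. The 3 points of Lamc1 lie together between 94.5 and 97.6 FPKM, whereas Lama1 stands at 0.765 FPKM in LCC, 32.3 FPKM in E-Int29-Hi and 1.67 FPKM in MG.

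Counted over the 9 genes, LCC against E-Int29-Hi had 0 at least 4-fold higher and 1 lower, Lama1, where 4.64% of all 12147 genes compared were higher and 4.35% lower. At 2-fold, 2 were higher (Lama4 and Nid1) and 3 lower (Lama1, Lama3 and Lama5), against 21.2% and 14.1% of all genes. LCC against MG had 1 at least 4-fold higher, Lamb3, and 2 lower, Lama5 and Nid2, against 1.33% and 2.63% of all 12443 genes. At 2-fold, 2 were higher (Lama3 and Lamb3) and 3 lower (Lama5, Nid1 and Nid2), against 10.9% and 12.8%. E-Int29-Hi against MG had 3 at least 4-fold higher (Lama1, Lama3 and Lamb3) and 2 lower (Nid1 and Nid2), against 2.60% and 3.97% of all 12430 genes. At 2-fold the same 3 were higher, and Lama4 joined the nidogens to make 3 lower, against 8.99% and 15.5%. The median of the 9 log2 changes was -0.60 for LCC over E-Int29-Hi, -0.60 for LCC over MG and -0.17 for E-Int29-Hi over MG. With median ratio scaling the last turned to 0.16, and the first came to -0.88. The median for LCC over MG came to -0.21 with a pseudocount of 5 FPKM. It came to -1.16 with libraries rescaled to the same sum, where the median of all genes was -0.41. The comparisons share libraries, so their counts are not separate evidence.

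**Figure D2:**
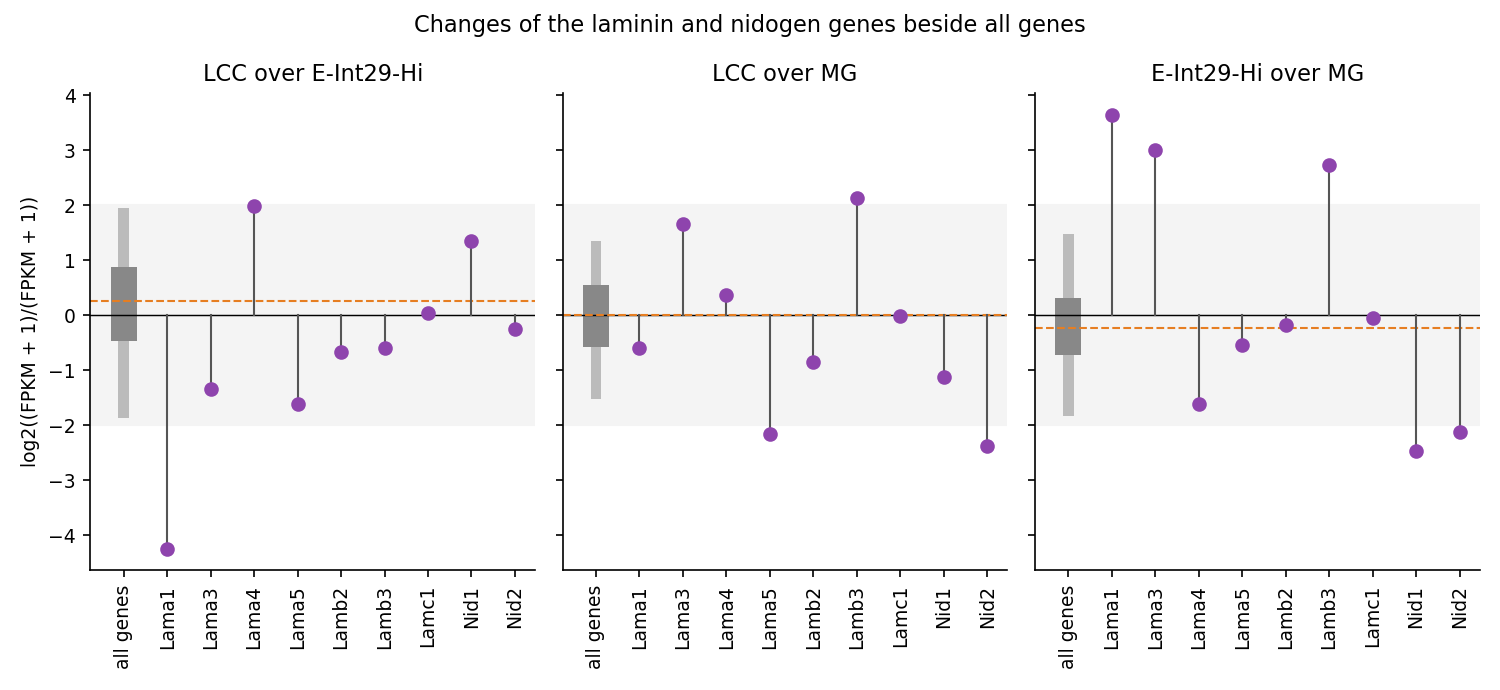
Log2 change of each of the 9 genes in the 3 comparisons, with grey bars for all genes compared (narrow bar, the 5th to 95th percentile; wide bar, the 25th to 75th), a dashed line at the median of all genes and shading within the 4-fold lines. Lama1 stands at -4.24 for LCC over E-Int29-Hi and 3.64 for E-Int29-Hi over MG, while Lamc1 stays near 0 in all 3 panels.

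Shares within a library do not depend on how libraries are scaled to each other. With Lama2 included, alpha chain FPKM summed to 121 in LCC, against 259 in E-Int29-Hi and 181 in MG. Lama2, the alpha2 chain of muscle and mesenchyme, is not one of the 9 genes. It stood at 9.71 FPKM in LCC, 1.15 FPKM in E-Int29-Hi and 41.9 FPKM in MG, and its MG value carries the status FAIL, so the MG alpha shares rest on a doubtful value. Lama3 made up 49.3% of the alpha chain sum in LCC, against 59.2% in E-Int29-Hi and 10.1% in MG. Lama5 made up 17.1% in LCC, against 25.2% in E-Int29-Hi and 53.0% in MG, so the leading alpha chain was Lama3 in both cell libraries and Lama5 in the gland. Without Lama2 these leading chains were the same, at 53.6% (Lama3, LCC), 59.5% (Lama3, E-Int29-Hi) and 69.0% (Lama5, MG). Lama4 was the second alpha chain of LCC at 25.0%, against 2.67% in E-Int29-Hi and 12.8% in MG. Lama1 held 0.631% in LCC, against 12.5% in E-Int29-Hi and 0.925% in MG.

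Lamb3 made up 48.0% of the beta chain sum in LCC, against 46.7% in E-Int29-Hi and 12.6% in MG. Lamb2 held 17.9% in LCC and 18.6% in E-Int29-Hi, and 39.9% in MG. The beta shares of the cell libraries lay within 2 percentage points of each other for each chain. The rest was Lamb1, the beta1 chain, at 49.8 FPKM in LCC, 79.1 FPKM in E-Int29-Hi and 56.5 FPKM in MG. Lamc3, a gamma chain outside the 9 genes, stood at 4.04 FPKM or less in every library. An mRNA share does not measure assembled or deposited protein.

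**Figure D3:**
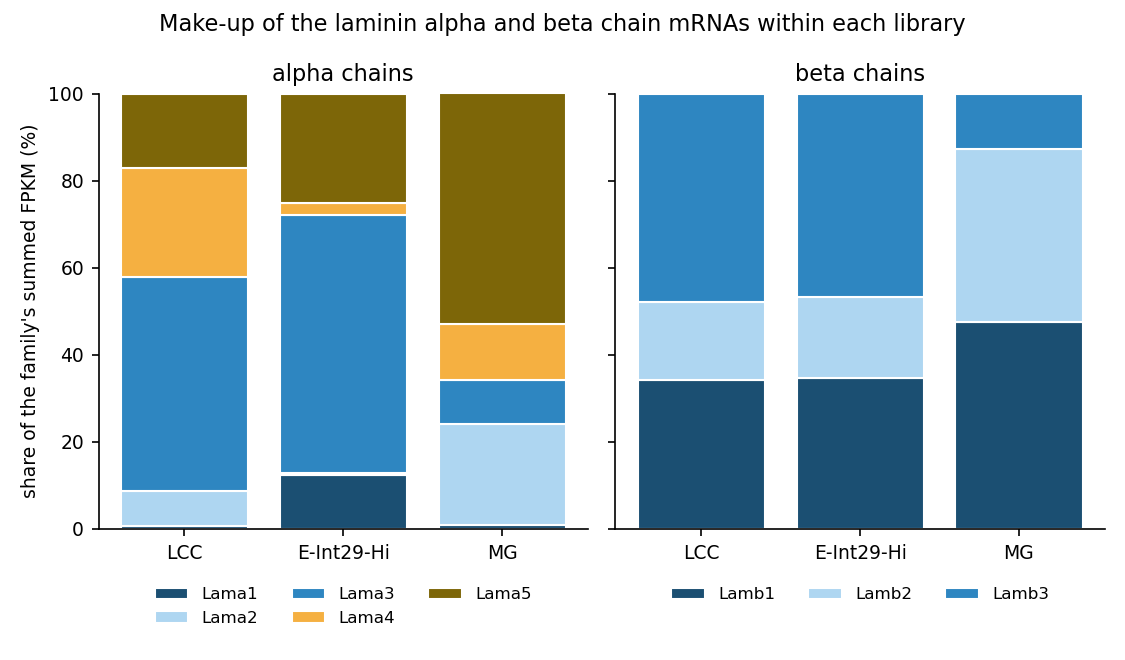
Stacked bars of each chain's share (%) of the summed FPKM of alpha and of beta chains, with 1 bar per library (LCC, E-Int29-Hi, MG). Lama3 is the largest alpha segment in LCC (49.3%) and E-Int29-Hi (59.2%) and Lama5 in MG (53.0%), and the beta bars of LCC and E-Int29-Hi are nearly alike.

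Among the 9 genes, the closest patterns over the 3 libraries were those of Lama3 and Lamb3, at a distance of 0.54 in log2(FPKM + 1) after subtracting each gene's mean. Lamb2 and Lamc1 came next at 0.64, and Lama5 and Lamb2 at 0.96. Over 6792 other genes at 10 FPKM or more in some library, the nearest to Lama1 were Fmod (distance 0.088), Luzp2 (0.117) and Tagln (0.167). The nearest to Lama3 were Serpinb5 (0.226), Fermt1 (0.229) and Ak1 (0.254), and the nearest to Lamb3 were Il24 (0.253) and Ddit4 (0.262). Arhgef6 (0.067), Stat2 (0.087) and Xdh (0.101) were nearest to Lama5. Pde8a (0.048), Gbp9 (0.054) and Macc1 (0.068) were nearest to Nid1, and Gpc3 (0.019), Slc25a36 (0.032) and Kdr (0.047) to Nid2. A likeness over 3 libraries is a weak description, since many genes share any one order.

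Other basement membrane genes were set beside these values. Of 24 listed, LCC against E-Int29-Hi had 21 past the low-value filter. Of these, 2 were at least 4-fold higher (Col15a1 and Smoc2) and 8 lower, against 4.64% and 4.35% of all genes. Their median was -1.55, where the median of all genes was 0.26. The list's median came to -0.78 over all 24 with no filter, and to -0.73 with a pseudocount of 5 FPKM. That pseudocount gave 1 higher and 5 lower, against 1.72% and 1.93% of all genes. The 8 were Col4a2, Col4a5, Col4a6, Agrn, Col7a1, Col17a1, Ntn4 and Frem2. Col4a5 and Col4a6, the alpha5 and alpha6 chains of type IV collagen, stood at 3.78 FPKM and 2.10 FPKM in LCC, against 77.4 FPKM and 50.7 FPKM in E-Int29-Hi. Those genes therefore had the direction of Lama1, whereas Hspg2 (perlecan, 53.6 FPKM in LCC and 78.2 FPKM in E-Int29-Hi) was under 2-fold apart, like Lamc1. Col15a1, a collagen at the interface of basement membrane and stroma, stood at 143 FPKM in LCC, 9.12 FPKM in E-Int29-Hi and 64.8 FPKM in MG. The sorted subset was its low library, as for Lama4.

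LCC against MG had 0 of the list's 20 filtered genes at least 4-fold apart either way, where 1.33% of all genes were higher and 2.63% lower. At 2-fold, 3 were higher and 6 lower, against 10.9% and 12.8% of all genes, and the list's median was -0.35. With libraries rescaled to the same sum, 2 of 23 were at least 4-fold lower, near the 6.37% of all genes that were lower at that setting. E-Int29-Hi against MG had 6 of 21 higher (Col4a5, Col4a6, Agrn, Col7a1, Col17a1 and Ntn4) and 2 lower (Col15a1 and Smoc2), against 2.60% and 3.97% of all genes. The list's median was 0.43. With libraries rescaled to the same sum, 7 of 24 were higher and 4 lower, against 2.59% and 6.98% of all genes. Agrn, the heparan sulfate proteoglycan agrin, stood at 136 FPKM in E-Int29-Hi and 31.3 FPKM in MG.

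Of 12 genes for laminin receptors and their cytoplasmic or membrane partners, 3 were at least 4-fold lower in LCC than in E-Int29-Hi and 0 higher. The shares of all genes were 4.35% lower and 4.64% higher. The median of the 12 was -0.59. Itga6, the integrin alpha6 subunit, stood at 26.8 FPKM in LCC, 351 FPKM in E-Int29-Hi and 93.0 FPKM in MG. Bcam, a receptor of the alpha5 chain, stood at 8.70 FPKM in LCC, 155 FPKM in E-Int29-Hi and 35.1 FPKM in MG. Dst, the hemidesmosome linker dystonin, stood at 21.8 FPKM in LCC, 132 FPKM in E-Int29-Hi and 61.2 FPKM in MG. Itgb4, the integrin beta4 subunit that joins alpha6 in hemidesmosomes, stood at 37.4 FPKM in LCC, 25.0 FPKM in E-Int29-Hi and 26.9 FPKM in MG. Itgb4 was thus less than 2-fold apart between any 2 libraries as deposited, whereas Itga6 was at least 2-fold apart in every comparison. Dag1, dystroglycan, stood at 27.2 FPKM in LCC, 78.6 FPKM in E-Int29-Hi and 34.1 FPKM in MG. LCC against MG had 0 of 12 at least 4-fold apart, where 1.33% of all genes were higher and 2.63% lower. With libraries rescaled to the same sum 3 of the 12 were lower, against 6.37% of all genes. E-Int29-Hi against MG had 1 higher, Bcam, and 0 lower, against 2.60% and 3.97% of all genes. Median ratio scaling gave 3 higher, against 3.75% of all genes, and rescaling to the same sum gave 0, against 2.59%. Itgb1 was part of the sorting gate, so its level in E-Int29-Hi is not a result.

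Of 10 genes for the enzymes that build the laminin-binding glycan of dystroglycan, 9 had values and 0 were at least 4-fold apart in any comparison. The shares of all genes higher and lower were 4.64% and 4.35% for LCC over E-Int29-Hi. They were 1.33% and 2.63% for LCC over MG, and 2.60% and 3.97% for E-Int29-Hi over MG. A count of 0 among so few genes is therefore not a result about them. Large, which extends that glycan, stood at 16.0 FPKM in LCC, 6.02 FPKM in E-Int29-Hi and 10.3 FPKM in MG.

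**Figure D4:**
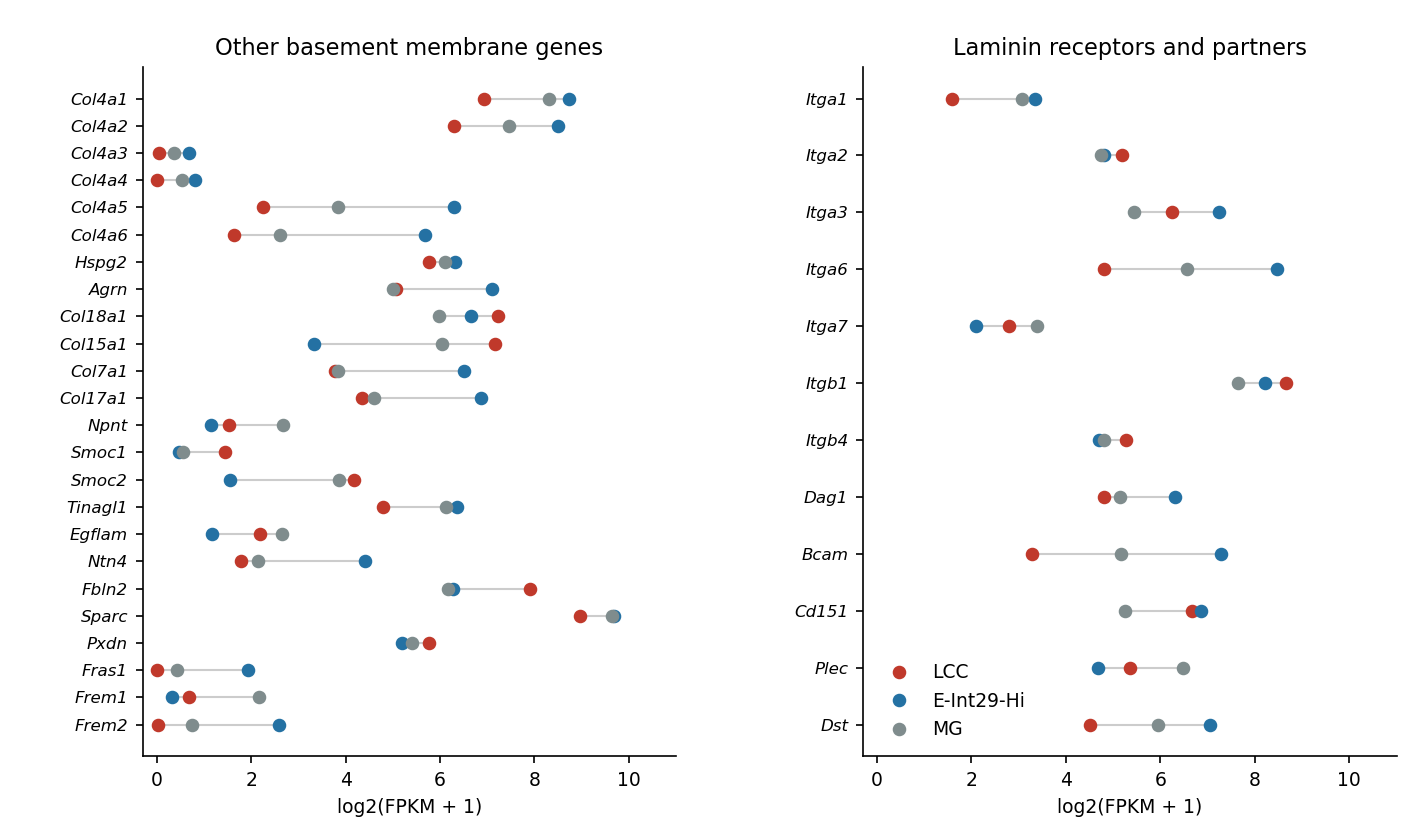
Level as log2(FPKM + 1) in each library (LCC, E-Int29-Hi, MG) for 24 other basement membrane genes (left) and 12 laminin receptors and partners (right), 1 point per library, with a grey line over the range. Col4a5, Col4a6, Itga6 and Bcam are highest in E-Int29-Hi and lowest in LCC, and Col15a1 is lowest in E-Int29-Hi.

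Markers of several cell types also differed between the libraries, with some but not all of the directions seen in the 9 genes, and their part in the results was not tested. In bulk RNA, fewer cells of a type and less RNA per cell cannot be told apart. Of all genes compared, 60.7% were higher in LCC than in E-Int29-Hi and 50.3% were higher in LCC than in MG. The 9 basal and myoepithelial markers together held 659 FPKM in LCC, 7461 FPKM in E-Int29-Hi and 475 FPKM in MG, the same high library as Lama1, Lama3 and Lamb3. All 9 were at least 4-fold lower in LCC than in E-Int29-Hi, against 4.35% of all genes. In LCC against MG the sum and its members differed in direction, since 6 of 9 were lower, with a median log2 change of -1.05, and Krt5, Krt14 and Krt17 were higher. The 8 fibroblast markers together held 1408 FPKM in LCC, 143 FPKM in E-Int29-Hi and 3064 FPKM in MG, with the sorted subset lowest, as for Lama4 and Nid1. All 8 were lower in LCC than in MG. Lama4 had a log2 change of 0.38 there as deposited, and of 0.0093 with libraries rescaled to the same sum. The 6 pericyte and smooth muscle markers together held 73.6 FPKM in LCC, 23.6 FPKM in E-Int29-Hi and 116 FPKM in MG. Their directions were split, with 3 higher and 3 lower in LCC than in E-Int29-Hi and a median log2 change of 0.49. In LCC against MG, 5 of these 6 were lower and 1 higher. The 7 endothelial markers together held 108 FPKM in LCC, 105 FPKM in E-Int29-Hi and 525 FPKM in MG, a pattern with the cell libraries close together, as for Nid2.

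The 10 luminal markers together held 3899 FPKM in LCC, 349 FPKM in E-Int29-Hi and 2580 FPKM in MG. Krt8 and Krt18, keratins of simple epithelia, gave 1258 FPKM and 2368 FPKM of the LCC sum. Of the 10, 8 were lower in LCC than in MG, with a median log2 change of -2.91. Of these 8, 6 were at least 4-fold lower, against 2.63% of all genes. In LCC against E-Int29-Hi, 6 of 10 were lower, where 60.7% of all genes were higher. The 6 lung epithelium markers together held 628 FPKM in LCC, 10.1 FPKM in E-Int29-Hi and 2.98 FPKM in MG, and the airway gene Scgb1a1 gave 572 FPKM of the LCC sum. The alveolar type I marker Ager stood at 7.44 FPKM in LCC, 1.14 FPKM in E-Int29-Hi and 1.11 FPKM in MG. In LCC against E-Int29-Hi, 5 of these 6 were higher and 1 lower. The lower gene was Foxj1, at 3.69 FPKM in LCC, 7.75 FPKM in E-Int29-Hi and 1.33 FPKM in MG. In LCC against MG all 6 were higher, where 50.3% of all genes were. The 6 leukocyte and macrophage markers together held 321 FPKM in LCC, 87.5 FPKM in E-Int29-Hi and 63.7 FPKM in MG. All 6 were higher in LCC than in either other library, against 60.7% (over E-Int29-Hi) and 50.3% (over MG) of all genes. In E-Int29-Hi against MG, 4 of the 6 were lower, with a median log2 change of -0.18, though their sum was higher. Of all genes, 38.1% were higher in that comparison. The 5 adipocyte markers together held 0.516 FPKM in LCC, 0.691 FPKM in E-Int29-Hi and 4.70 FPKM in MG, so the defining adipocyte genes were near 0 in the undissociated gland too, where Cidec was highest at 1.67 FPKM. Plin1, Lep and Retn were listed at 0 in LCC. The 5 Schwann cell markers together held 14.8 FPKM in LCC, 37.1 FPKM in E-Int29-Hi and 96.5 FPKM in MG. S100b was listed at 0 in LCC and Sftpa1 in E-Int29-Hi.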

How the data were processed

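The deposited tables hold 1 FPKM value and 1 status per gene for each library, per the file headers. Poly-T capture, TruSeq libraries and an Illumina HiSeq instrument are given per the labels' protocols. The submitters' processing notes name TopHat 1.4.1, Cufflinks 1.3.0 and the build mm9 and give no roles. For the annotation, no release is given in the sources used here. Of 22378 gene models, 78 had no value, 112 had a value but a status other than OK in some library, and 22188 were used. Where a name stood on several models, the one with the highest summed FPKM was kept, leaving 22077 names. Their FPKM totals were 375295 (LCC), 325939 (E-Int29-Hi) and 288156 (MG).

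Genes that reached 1 FPKM in either library of a pair were compared as log2(FPKM + 1) differences. With 1 library per group nothing was tested and no p-value is given. Alpha and beta chain shares used every chain with a value, Lama2 included. All 9 genes, every gene of the chain, basement membrane, receptor and glycan lists, and the 3 nearest genes of each member past 4-fold could be named, less a few that are not reported here. Hsd11b1 and G0s2 are named for their overlap with Lamb3, and Rtraf for its overlap with Nid2. Gtdc2 was not among the names with a value. Members and lists were chosen with earlier results of these data known. Alternatives were a pseudocount of 0.1 or 5 FPKM, no filter or one at 5 FPKM, median ratio scaling, rescaling each library to a sum of 1000000 (TPM), summing models of one name, and keeping genes of every status. The log2 change and the 4-fold count were tested on simulated data with an assumed depth. The shares, distances, scalings and motif searches were not tested in that way. Python 3.11.15, numpy 2.4.6, pandas 2.3.3 and matplotlib 3.10.9 were used.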

Additional observations from a re-analysis of the deposited data

How the results depend on the processing

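Of 214 recomputed log2 changes of the 9 genes under 8 alternatives, 202 kept their direction and their side of the 4-fold line, 6 dropped under it, 1 passed it and 5 changed sign. Only the pseudocount and scaling alternatives could move a log2 change. The filter, summing and status alternatives repeat the deposited value wherever the gene is kept, so their unchanged values are no evidence of stability. The sign changes were Lamc1 with median ratio scaling (-0.24 for LCC over E-Int29-Hi, 0.046 for LCC over MG, 0.29 for E-Int29-Hi over MG), Lamc1 rescaled to the same sum (-0.16 for LCC over E-Int29-Hi) and Lamb2 with median ratio scaling (0.16 for E-Int29-Hi over MG). Of 96 recomputed counts of members, 89 were within 1.5 times the count reported. For LCC over E-Int29-Hi, a pseudocount of 0.1 FPKM gave 1 gene at least 4-fold higher, Lama4, where 9.29% of all genes were higher at that setting. For LCC over MG, a pseudocount of 5 FPKM gave 0 higher and 0 lower at 4-fold, against 0.571% and 0.763% of all genes. Rescaling to the same sum gave 0 at least 4-fold higher, against 1.09% of all genes, and 5 at least 2-fold lower. At that setting 27.1% of all genes were at least 2-fold lower, where 12.8% were as deposited. For E-Int29-Hi over MG, a pseudocount of 5 FPKM and median ratio scaling each gave 1 gene at least 4-fold lower. The shares of all genes were 1.28% with that pseudocount and 2.87% with that scaling. The 4-fold calls of Lama1, Lama3 and Nid1, and that of Lamb3 for E-Int29-Hi over MG, held under every pseudocount and scaling alternative. The other alternatives could not change them. Without Lamb1 in the sum, Lamb2 held 27.2% and Lamb3 72.8% of beta chain FPKM in LCC, 28.4% and 71.6% in E-Int29-Hi, and 76.0% and 24.0% in MG; 12 alpha chain shares without Lama2 moved by less than 1.5 times.

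The divisors of median ratio scaling were 1.05 for LCC, 0.863 for E-Int29-Hi and 1.09 for MG. Of all genes at least 4-fold apart, the split of higher and lower was 564 and 528 for LCC over E-Int29-Hi as deposited, and 451 and 700 with that scaling. For E-Int29-Hi over MG it was 323 and 494 as deposited, and 465 and 356 with that scaling. Rescaling to the same sum gave 157 higher and 919 lower for LCC over MG, where 166 and 327 stood as deposited, and gave a median gene of -0.41 in place of 0.01. For E-Int29-Hi over MG it gave 375 and 1011. The cause of these differences was not tested. No paired analysis was possible because each group has 1 library.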
